A study of Pimephales promelas with 16 samples.

Results

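Flutamide was compared with control in explants, cultured ovary pieces, of female fathead minnow (Pimephales promelas), a small freshwater fish used in tests of endocrine disruption. The comparison rests on 8 of the 16 arrays of the series, chosen by their labels: 4 flutamide arrays, whose titles carry the numbers 2, 3, 5 and 6, and 4 control arrays, numbered 1, 3, 4 and 6. Explants were incubated for 12 h, and flutamide was given at 1e-06 M; the labels do not say whether controls received a carrier, nor the age or strain of the fish or whether replicates came from separate animals. The p-values therefore rest on the spread of these samples alone, and some of it may be technical. The remaining 8 arrays, with DHT or LIN at 1e-06 M for 12 h, entered the shared estimate of the spread and the side-by-side values of the named probes. They also entered the choice of tested probes, the order of probes by brightness and quantile normalization. In the fits of all arrays with title number, slide or scan day as a block, they also change the estimated difference between flutamide and control.

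Flutamide is a non-steroidal drug that blocks the androgen receptor, a transcription factor switched on by testosterone and its relatives. In the fish ovary, follicle cells make androgens, which serve as precursors of the estradiol that drives yolk protein synthesis in the liver and also act through their own receptors. A blocker given to an explant therefore meets androgens made by the tissue itself, outside the reach of pituitary hormones.

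The array names each probe by an identifier and by the contig or sequence it was designed on, without a gene symbol, and 0 of 14499 such names matched a RefSeq symbol or accession. No probe is given a gene or a function below, and the ovary label could not be checked against marker genes. Each array's 75th percentile of signal lay between 1024 and 3418 over the 8 arrays, with a mean of 2390 ± 1042 (SD, n = 4) in control and 1892 ± 645 (SD, n = 4) with flutamide. Between 80.9% and 86.6% of the probes were well above background. Every level below is log2 of the signal relative to the 75th percentile of its array, so that 0 is a bright probe and -6 a dim one. In bulk tissue, fewer cells of a type and less RNA per cell cannot be told apart. By the position code in the file headers all 4 control arrays lay at position 1 along the slide and all 4 flutamide arrays at position 3, so position and compound cannot be told apart.

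Of 13146 probes that could be tested, 2 fell with flutamide and 0 rose in a limma fit without a block (adjusted p below 0.05). That is 0.0152% of the probes tested. This fit leaves out the likeness of arrays that share a title number, and the SEs and intervals below come from it unless another fit is named. With the number as a fixed block 0 probes passed, and with it as a random block 14 passed, 10 lower and 4 higher. Over all probes the median difference, flutamide minus control, was -0.09 on the log2 scale, with 5th and 95th percentiles of -0.87 and 0.74. The mean differed by more than 2-fold downwards for 418 probes (3.18%) and upwards for 365 (2.78%). The 4 flutamide values lay wholly below the 4 control values for 567 of the 13005 probes measured on every one of the 8 arrays (4.36%), and wholly above them for 262 (2.01%). The median difference was -0.70 over the former and 0.58 over the latter. Before adjustment, 425 probes with a higher level (3.23%) and 939 with a lower one (7.14%) had a p below 0.05. The share of lower probes there was 68.8%, against 46.8% with median scaling, 57.2% with normexp followed by quantile normalization, 9.51% with normexp scaled to the 75th percentile and 99.7% with centring on spike-in spots. These scalings moved the median over all probes to 0.07, -0.01, 0.38 and -0.62.

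The first probe that fell was UF_Ppr_AF_117765, designed on the sequence gi_73642462. Control levels were -5.35, -4.23, -3.88 and -4.10 for numbers 1, 3, 4 and 6. Flutamide levels were -6.75, -6.41, -7.60 and -6.46 for numbers 2, 3, 5 and 6. The groups did not overlap, control 1 lay closest to the flutamide arrays, and the signal on flutamide 5 was not well above background. The probe is dim, with 13.1% of the kept probes at or below its mean level, and its signal ran from 10.2 to 24.0 on the flutamide arrays and from 26.9 to 199 on the control arrays. The mean fell by 2.41 ± 0.33 (SE) on the log2 scale, with a 95% interval from -3.11 to -1.71 (limma adjusted p = 0.0394). The sign turned, to 0.11, only with normexp scaled to the 75th percentile, an alternative in which 50 is added to every signal. With normexp followed by quantile normalization the difference was -0.82 (limma adjusted p = 0.104).

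The second, UF_Ppr_AF_101427 on contig FJU.6392.C3, was well above background on all 8 arrays. Control levels were -2.67, -3.26, -3.02 and -2.69, and flutamide levels -4.67, -4.27, -4.50 and -4.37, in the order of the numbers above. A gap of 1.01 separated the lowest control array, number 3, from the highest flutamide array, also number 3. The mean fell by 1.54 ± 0.22 (SE) on the log2 scale, with an interval from -2.02 to -1.07 (limma adjusted p = 0.0399). Contig names that differ only in their last field, such as FJU.6392.C2, were treated as one assembly group, by the form of the name alone. The array carries 3 probes of FJU.6392. The other two were chosen for display after the values of the first were seen. FJU.6392.C2 stood at -4.17 ± 0.63 (SD, n = 4) with flutamide and -2.92 ± 0.35 (SD, n = 4) without it, -1.24 ± 0.44 (SE) apart (limma adjusted p = 0.373). FJU.6392.C5 stood at -3.99 ± 0.24 (SD, n = 4) against -2.83 ± 0.35 (SD, n = 4), -1.16 ± 0.24 (SE) apart (limma adjusted p = 0.290). Neither passed the test. Between flutamide 3 and control 3, C2 and C5 differed by -0.59 and -0.39, and between flutamide 6 and control 6 by -0.64 and -1.40. Of 238 assembly groups with at least 3 tested probes, 2 had every probe more than 2-fold lower on average, FJU.6392 and FJU.5508, and 0 had every probe more than 2-fold higher. The 3 probes of FJU.5508, named after their values were seen, differed by -1.26, -1.01 and -1.02, and none passed (limma adjusted p = 0.295, 0.306 and 0.306). Between flutamide 3 and control 3 they differed by only -0.07, -0.63 and -0.27. Between flutamide 6 and control 6 the differences were -2.22, -1.17 and -0.89. For the last, FJU.5508.C3, the control and flutamide arrays overlapped.

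The call of both probes did not outlast every setting. With the title number as a fixed block, 0 of 13146 probes passed (limma adjusted p = 0.244 for each). Before adjustment, 956 higher and 674 lower probes of these 13146 had a p below 0.05 in that fit. Lower probes were 41.3% of them, against 68.8% in the fit without a block, so the larger share changed direction. Number 2 occurs on flutamide 2 alone, so with the fixed block that array adds nothing to the difference. Leaving out flutamide 2 in the fit without a block gave a share of 62.4%. Treating the number as a random block called 14 (0.106%), both probes included, with differences of -2.46 ± 0.30 (SE) and -1.40 ± 0.21 (SE; limma adjusted p = 0.0109 and 0.0356). Both passed in the fit with slide as a block (limma adjusted p = 0.0428 and 0.0145). Taken slide by slide, in the order 1, 2 and 3, UF_Ppr_AF_117765 differed by -1.65, -2.52 and -2.47, and UF_Ppr_AF_101427 by -1.71, -1.41 and -1.52. Slide 1 held 1 control and 2 flutamide arrays, slide 2 held 1 of each, and slide 3 held 2 control arrays and 1 flutamide array. Neither probe passed within slide 1 (limma adjusted p = 0.613 for each) or within slide 3 (limma adjusted p = 0.262 and 0.529), and slide 2, with 1 array a group, gave values with no test. Leaving out control 1 left 1 call, UF_Ppr_AF_117765, and leaving out any other of the 8 arrays left 0.

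Among probes with higher levels the lowest p belonged to UF_Ppr_AF_116171, on gi_73497819, with 0.997% of the kept probes at or below its mean level. Its levels were -7.70, -8.60, -8.15 and -7.93 on the control arrays, not well above background on any of them, and -6.87, -7.02, -6.49 and -7.04 on the flutamide arrays, well above background on all 4. Before scaling, its signal ran from 5.28 to 14.0 on the control arrays and from 7.91 to 22.1 on the flutamide arrays. Control 6, at 14.0, lay above flutamide 3, at 7.91, so the absence of overlap in the levels rests on the scaling. Under this scaling the measured mean with flutamide was at least 1.33-fold higher, which is not a limit on the true change. With normexp followed by quantile normalization the difference was 0.26 on the log2 scale. The probe did not pass the test (limma adjusted p = 0.290), and passed in the fit with a random block for the number (limma adjusted p = 0.0374). Only 4 probes were well above background on all 4 flutamide arrays and no control array, and 6 on all 4 control arrays and no flutamide array.

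UF_Ppr_AF_109988, on contig FJU.728.C8, is a bright probe, at or above 93.5% of the kept probes. Control levels were 2.04, 2.03, 2.04 and 1.66, and flutamide levels 3.07, 3.15, 3.35 and 3.17. The flutamide arrays lay within 0.28 of each other and more than 1 log2 unit above every control array. Before scaling, control 3 at 12294 and control 6 at 10810 lay above flutamide 3 at 9112. The absence of overlap thus rests on the scaling here too. The means lay 1.24 ± 0.25 (SE) apart, short of the threshold (limma adjusted p = 0.290). Of FJU.728, 6 more probes were tested, and their differences spread widely. FJU.728.C7 stood at -0.18 ± 0.23 (SD, n = 4) with flutamide and -1.34 ± 0.28 (SD, n = 4) without it, 1.16 ± 0.52 (SE) apart (limma adjusted p = 0.464). The remaining 5 lay between -0.88 and 0.26, and none passed.

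**Figure D1:**
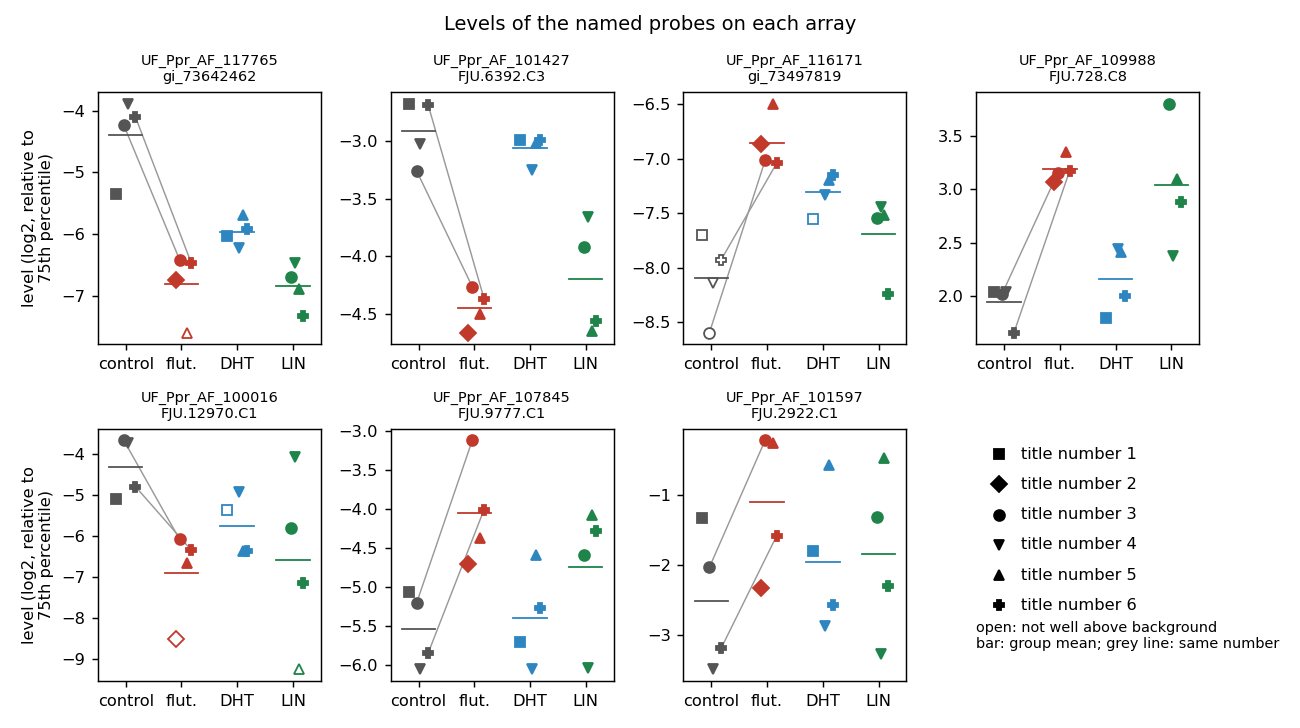
Levels of the 7 named probes on each of the 16 arrays, as log2 relative to the array's 75th percentile, by group; marker shape gives the title number, bars are group means, open symbols are spots not well above background, and grey lines join control and flutamide arrays of one number. The control and flutamide arrays overlap in the panel of UF_Ppr_AF_101597 and in no other panel.

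Title numbers 3 and 6 occur in both groups, and the arrays that shared one were closer to each other than the rest. The difference between flutamide 3 and control 3 had an SD of 0.658 over the tested probes, and that between flutamide 6 and control 6 an SD of 0.856. The 14 combinations of a flutamide and a control array with different numbers ran from 0.925 to 1.18. Sharing a slide went with no such closeness: the 4 combinations of one slide and different numbers ran from 0.958 to 1.06, while flutamide 3 and control 3 lay on different slides. Counted another way, 1013 and 1147 probes differed by more than 2-fold within numbers 3 and 6, and 1972 to 3668 in the other combinations. Arrays of one group, all of different numbers, had an SD of 0.918 to 1.17 among controls and 0.901 to 0.974 among flutamide arrays.

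**Figure D2:**
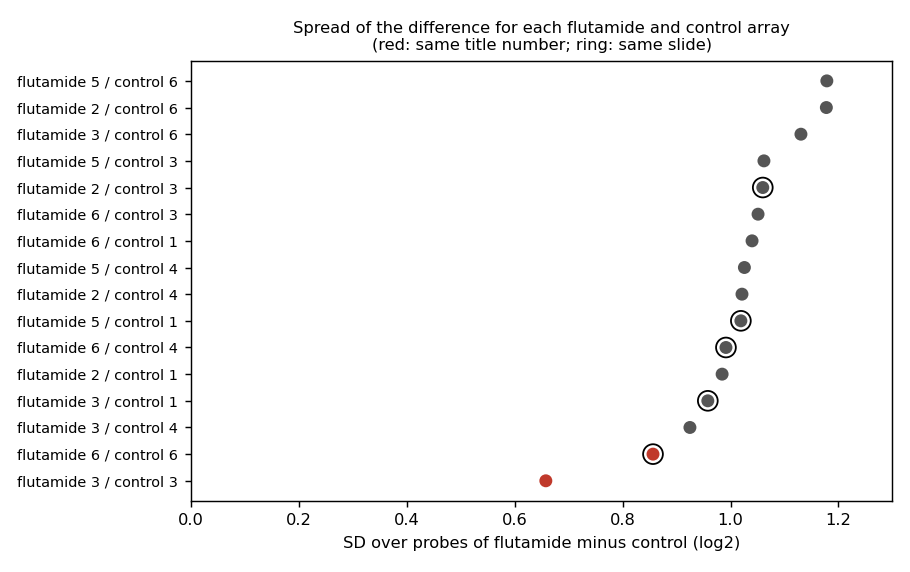
SD over probes of flutamide minus control (log2, horizontal axis) for each of the 16 combinations of a flutamide and a control array; red points share a title number and ringed points share a slide. The red points, at 0.658 and 0.856, lie left of all 14 others, which start at 0.925.

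Within the pairs, 11468 probes were well above background on all 4 arrays. The 2 pair differences correlated weakly over these probes (Pearson r = 0.12, Spearman rho = 0.18, n = 11468 probes measured on the same 4 arrays), and 54.1% had the same sign in both. Flutamide 3 lay on slide 1, scanned on day 2, with a 75th percentile of 1024. Control 3 lay on slide 2, scanned on day 1, with a 75th percentile of 3020. Slide, scan day and compound thus cannot be told apart within number 3. Flutamide 6 and control 6 shared slide 3 and the scan day. Within number 3, 379 probes were more than 2-fold higher and 99 more than 2-fold lower. Within number 6 the counts were 306 and 308. More than 2-fold higher in both were 57 probes (0.497%), which is 15.0% of the list of number 3 and 18.6% of that of number 6. More than 2-fold lower in both were 9 probes (0.0785%), 9.09% and 2.92% of the lists. Another 30 (0.262%) went opposite ways. A limma fit of these 4 arrays with the number as a block called 0 of 13146 probes, and before adjustment 583 higher and 190 lower probes had a p below 0.05. That fit has 1 residual degree of freedom per probe, so its count of calls says little. The excess of higher probes before adjustment changed with the scaling. Higher and lower probes numbered 671 and 300 with median scaling, 1592 and 45 with normexp alone and 591 and 481 with quantile normalization. They numbered 543 and 502 with the authors' log2 table, and 15 and 9961 with spike-in centring. The lists of 57 and 9 probes were not drawn up under other scalings.

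**Figure D3:**
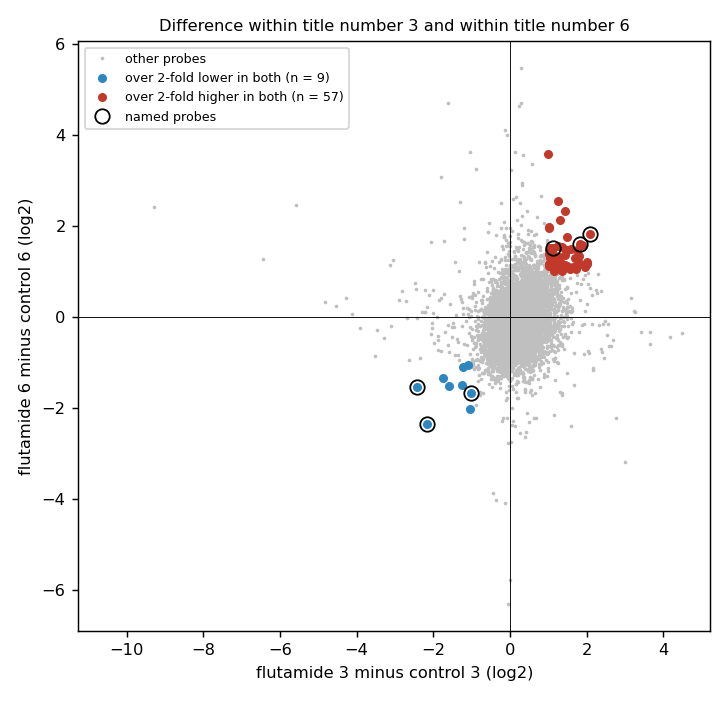
Flutamide minus control (log2) within title number 3 (horizontal) and within title number 6 (vertical) for 11468 probes; blue points were more than 2-fold lower in both (n = 9), red points more than 2-fold higher in both (n = 57), and rings mark the named probes measured well above background on all 4 arrays. Most probes form a round cloud near 0 (r = 0.12).

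The 2 probes that fell in the comparison of all arrays were among the 9 lower in both pairs. UF_Ppr_AF_117765 differed by -2.18 within number 3 and by -2.36 within number 6. UF_Ppr_AF_101427 differed by -1.01 and -1.68. UF_Ppr_AF_109988 differed by 1.13 and 1.51. Since the groups of these probes do not overlap, the sign within each pair was fixed. UF_Ppr_AF_116171 was not well above background on control 3 or control 6, so no size is given for it within the pairs.

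The probes that differed most within both pairs were chosen on these 4 arrays, and their pair differences are a description. UF_Ppr_AF_100016, on contig FJU.12970.C1, differed by -2.42 and -1.55. UF_Ppr_AF_107845, on FJU.9777.C1, differed by 2.08 and 1.83, and UF_Ppr_AF_101597, on FJU.2922.C1, by 1.82 and 1.62. UF_Ppr_AF_117765 was the lowest of all by the same rule.

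The other 4 arrays, flutamide 2 and 5 and control 1 and 4, took no part in that choice. UF_Ppr_AF_100016 was at -8.53 on flutamide 2, not well above background, and at -6.66 on flutamide 5, against -5.10 and -3.73 on control 1 and 4. Both flutamide values lay below both control values. UF_Ppr_AF_107845 was at -4.71 and -4.38 with flutamide against -5.06 and -6.06 in control, again without overlap. UF_Ppr_AF_101597 was at -2.33 and -0.25 with flutamide against -1.33 and -3.49 in control, where the groups overlapped. None of the 3 passed in the comparison of all arrays. The differences there were -2.58 ± 0.87 (SE), 1.49 ± 0.46 (SE) and 1.42 ± 0.71 (SE), at limma adjusted p = 0.357, 0.331 and 0.505. With the title number as a fixed block, where flutamide 2 adds nothing, UF_Ppr_AF_100016 differed by -1.26 ± 0.66 (SE; limma adjusted p = 0.458). With the number as a random block UF_Ppr_AF_100016 differed by -1.69 ± 0.65 (SE; limma adjusted p = 0.246). On slides 1, 2 and 3 in turn its difference was -1.27, -4.86 and -2.08, where the flutamide array of slide 2 is the one not well above background. Slide by slide UF_Ppr_AF_107845 differed by 1.31, 0.50 and 1.94, and UF_Ppr_AF_101597 by 1.09, -0.29 and 1.77. With normexp scaled to the 75th percentile UF_Ppr_AF_100016 stood at 0.18, the opposite sign.

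The same was done for the whole lists. All 9 probes lower in both pairs were also lower, by the difference of means, on the other 4 arrays. Their median difference there was -1.85 and 8 of them were more than 2-fold lower. Among the 9, UF_Ppr_AF_117765 was not well above background on flutamide 5, nor UF_Ppr_AF_100016 on flutamide 2. Signal well above background was not required on these other 4 arrays. Of the 11411 probes with values there, 62.8% were lower and 12.1% more than 2-fold lower, with a median of -0.17. Of the 57 probes higher in both pairs, 48 (84.2%) were higher on the other 4 arrays and 25 were more than 2-fold higher, with a median of 0.91. Among all probes 37.2% were higher and 3.61% more than 2-fold higher. In the 4 combinations of one of these flutamide arrays with one of these control arrays, the median of the higher list was at least 0.45 and that of the lower list ran from -2.03 to -1.40. Both lists were dimmer than the rest, with median levels of -3.61 and -5.51 for the higher and the lower one, against -1.90 over all 11468 probes. The median level of the lower list lies in the dimmest of 5 equal sets of the kept probes, where the median difference on these 4 arrays was -0.65. That of the higher list lies in the next set, where it was -0.51. No 2 of these 4 arrays share a title number. The part of dimness in the counts above was not tested. The groups did not overlap over all 8 arrays for 8 of the 9 and for 16 of the 57, where 4.36% of 13005 probes lay lower and 2.01% higher without overlap. The arrays that chose the lists are among those 8, so nothing is read from these counts.

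**Figure D4:**
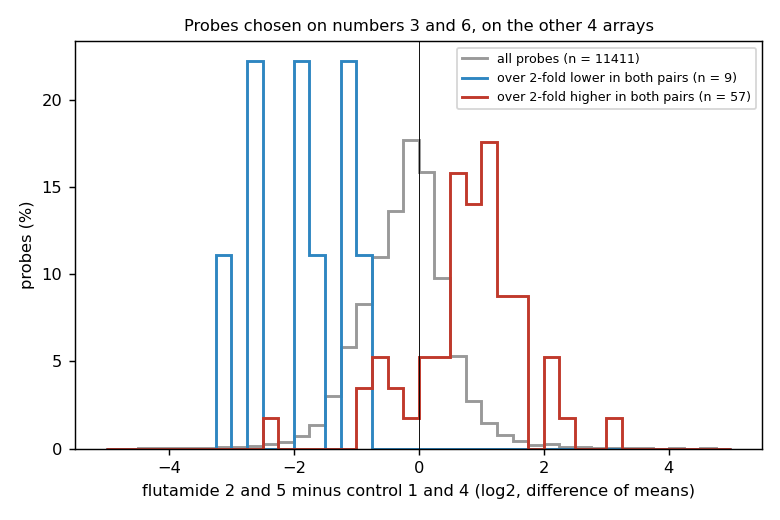
Difference of means on the arrays with other numbers (flutamide 2 and 5 minus control 1 and 4, log2, horizontal axis) as percent of probes in each list; grey is all 11411 probes, blue the 9 more than 2-fold lower in both pairs and red the 57 more than 2-fold higher in both. The blue list lies wholly below 0, from -3.18 to -0.84, and the red list has its median at 0.91.

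Lower and higher probes differed in brightness. The difference of all 4 against 4 was -0.27 at the median of the dimmest group, when the probes were ordered by level and cut into 5 equal groups, and 0.06 in the brightest. The arrays behind that shift did not move together. In the dimmest group the median was 0.42 within number 3, where slide and scan day differed too. It was -0.23 within number 6 and -0.65 on the arrays with other numbers. In the brightest group the same medians were 0.10, 0.08 and 0.02. Of the probes whose arrays did not overlap between treatments, 19.3% of 140 were higher in the dimmest group and 73.3% of 146 in the brightest. These brightness groups held 2630 and 2629 probes. Over all levels, 262 such probes were higher and 567 lower. The shares were not computed under other scalings. Both probes that fell lie below the median level of all tested probes, -2.50. Among the 14 called with the random block the 10 lower ones had a median level of -5.65 and the 4 higher ones -3.80. Those 14 differed by 0.79 to 2.46 downwards and by 1.13 to 1.78 upwards, and 5 of them were not well above background on all 8 arrays.

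**Figure D5:**
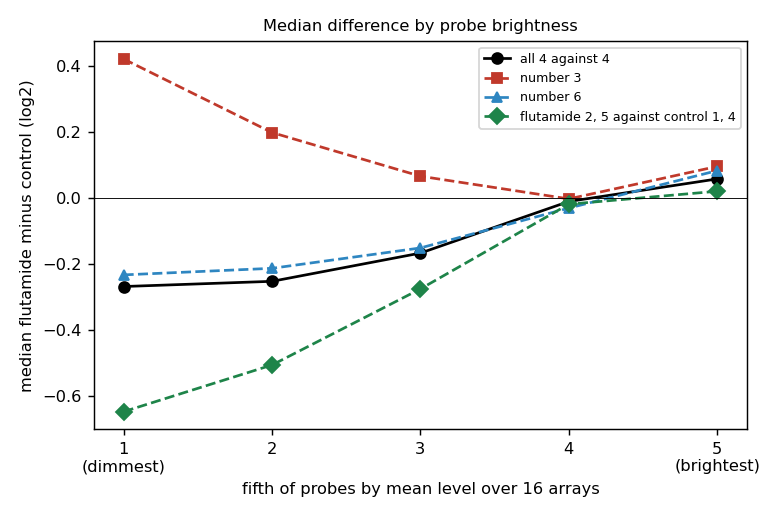
Median of flutamide minus control (log2) in 5 equal groups of probes ordered by mean level over the 16 arrays, for all 4 against 4 arrays, within title numbers 3 and 6, and for flutamide 2 and 5 against control 1 and 4. The lines spread in the dimmest group, from 0.42 to -0.65, and meet in the brighter ones.

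The level with flutamide was also set beside the other compounds in the same fit. UF_Ppr_AF_117765 was at -5.96 ± 0.22 (SD, n = 4) with DHT, between control and flutamide, and flutamide minus DHT was -0.84 (95% interval -1.54 to -0.14; limma adjusted p = 0.886). With LIN it was at -6.84 ± 0.37 (SD, n = 4), and flutamide minus LIN was 0.04 (-0.66 to 0.74). UF_Ppr_AF_101427 was at -3.06 ± 0.13 (SD, n = 4) with DHT, against a control mean of -2.91, and flutamide minus DHT was -1.39 (-1.86 to -0.91; limma adjusted p = 0.250). UF_Ppr_AF_109988 was at 2.16 ± 0.31 (SD, n = 4) with DHT, and flutamide minus DHT was 1.02 (0.48 to 1.56; limma adjusted p = 0.622). With LIN the last 2 probes stood at -4.20 ± 0.49 (SD, n = 4) and 3.04 ± 0.59 (SD, n = 4), and flutamide minus LIN was -0.25 (-0.73 to 0.22) and 0.15 (-0.39 to 0.68). UF_Ppr_AF_116171 was at -7.31 ± 0.18 (SD, n = 4) with DHT, and flutamide minus DHT was 0.46 (-0.03 to 0.94; limma adjusted p = 0.977). It was at -7.69 ± 0.37 (SD, n = 4) with LIN, and flutamide minus LIN was 0.84 (0.35 to 1.32; limma adjusted p = 1.00). None of these differences passed, so nothing here is shown to belong to flutamide alone.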

How the data were processed

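The authors deposited one scanner file per array, which per the file headers came from Agilent Feature Extraction 10.7.1.1, with a background-subtracted intensity per spot on a linear scale and flags of 0 or 1 that mark a spot as well above background, saturated or not uniform. They also deposited a table of log2 values of the same arrays, with a normalization not given in the sources used here. Each of its columns followed the log2 signal of its own array (r from 0.99955 to 0.99997), and its medians lay between 7.72 and 7.77; its scale and direction are thus known and its centring is not. Of 15744 spots, 536 control spots were left out, leaving 15208 probes, and 185 outlier spots over the 16 arrays were set to missing. Saturated probes numbered 0.

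The level of a probe was log2 of its processed signal, less that of the array's 75th percentile. A probe was kept when well above background on at least 3 of 4 arrays of a group (13146 probes, 11144 of them on all 16 arrays). Group means of all 16 arrays were fitted with limma 3.58.1 in R 4.3.3, two-sided, with Benjamini-Hochberg adjustment over the kept probes. The same fit was run on simulated data with planted changes, where only the closeness of the mean estimates was required. That run is no check of the calls above. The median 95% interval of a log2 difference extended 0.66 each way. The number of arrays limits the precision. Where a group had no array well above background, the fold is a bound: the bright group's mean against the higher of the dim probe's own signal and the lowest signal well above background, per array.

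Deviations from group means correlated for all 16 pairs of arrays with one title number (r from 0.354 to 0.772; 0.444 and 0.484 for numbers 3 and 6 of flutamide and control), so samples are paired by number; what a number marks is not stated in the labels. The correlation used for the random block was 0.631. The arrays lay on 3 slides scanned on 2 days. The comparison, the lists and the probes to be named were chosen with earlier results of these data known. Named were, per direction, at most 2 probes: the called ones with the largest change, otherwise the lowest p among probes whose groups do not overlap; within numbers 3 and 6, those with the largest smaller-of-the-pair difference of one sign among probes well above background on the 4 arrays. Members of the gene and marker lists drawn up for this work could not be identified on the array, since its probe names match no gene symbol. The deposited files hold no mean spot signal, so normexp used the median signal.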

Additional observations from a re-analysis of the deposited data

Results flagged for a closer look

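For UF_Ppr_AF_109988, control 6 at 1.66 stood apart from the other control arrays, at 2.03 to 2.04. It lay farther from the flutamide arrays than they did. Chance sets apart about 1 in 20 groups of this size.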

How the results depend on the processing

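The count of 2 calls was 2 with median scaling and 3 with scan day as a block. It was 1 with quantile normalization, with normexp followed by quantile normalization (chosen after seeing the data), with the authors' log2 table and with probes well above background on all arrays. It was 0 with no filter, with normexp scaled to the 75th percentile, with only the 8 arrays, with the trended robust prior, within slide 1 and with the fixed replicate block, 4 with slide as a block, 10 within slide 3, 14 with the random replicate block and 109, all lower, with spike-in centring. Leaving out 1 array gave 0 to 1. Slide 2 holds 1 array of each group and gave no test. Within numbers 3 and 6 the count of 0 of 13146 probes became 163 with normexp, 145 of them higher and 18 lower. It became 401 with the trended robust prior, 335 higher and 66 lower. With spike-in centring it was 8832 of 13146, with 14 higher and 8818 lower. The count stayed 0 under the other alternatives, without the replicate block too. A single pair has no residual degrees of freedom, so leaving out a pair there gave values only. The causes were not tested. UF_Ppr_AF_117765 was called in 6 of 23 alternatives with a test and UF_Ppr_AF_101427 in 9 of 24, with adjusted p up to 0.938 and 0.842. Their differences ran from -2.95 to 0.11 and from -2.08 to -0.21. The sign turned for 3 differences: with normexp, UF_Ppr_AF_117765 stood at 0.11 and UF_Ppr_AF_100016 at 0.18, and within slide 2 UF_Ppr_AF_101597 stood at -0.29. The others kept their direction under the alternatives run.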

Other observations

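For 329 sequence names both of 2 probes were tested. The flutamide differences of the 2 probes correlated at r = 0.05 over these names (Spearman rho = 0.02), which share the same arrays. The probes of a name lay a median of 4.67 log2 units apart in level. At an unadjusted limma p below 0.05 for both probes there were 7 of the 329 names, 5 lower and 2 higher, and 0 with opposite signs. Over all tested probes 7.14% were lower and 3.23% higher at that threshold. How many such names would arise by chance was not tested. The spike-in signal relative to the 75th percentile was -0.13 ± 0.41 (SD, n = 4) in control and 0.40 ± 0.52 (SD, n = 4) with flutamide, on the log2 scale.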
